A study of Mus musculus with 16 samples.

Results

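The 10 genes described here stand for the hypoxia-inducible factor (HIF) pathway in the count table of this series, and their levels were followed through erythroblast maturation and across *Nprl3* genotypes. The rule picks the genes by symbol, 10 of the 55416 genes counted, and was set with earlier results of these data known. They are the factor subunits *Hif1a* and *Epas1*, the prolyl hydroxylases *Egln1* and *Egln3*, the recognition subunit *Vhl*, and the targets *Bnip3*, *Vegfa*, *Ankrd37*, *Higd1a* and *P4ha1*. RNA was sequenced from erythroblasts sorted from E13.5 mouse foetal livers by Ter119 and CD71, into the early stage S1 and the later stage S3. Each of 8 embryos, from a line backcrossed to C57BL/6J, was sequenced once at each stage, 16 libraries in all. There were 4 Nprl3+/+ (WT) embryos, 2 male and 2 female, 2 Nprl3+/- (Het) embryos, both male, and 2 Nprl3-/- (KO) embryos, 1 male and 1 female. The deleted allele lacks the *Nprl3* promoter region and keeps the α-globin enhancers, and no group received a treatment. In the labels, the fields for source and tissue give a stem cell line (ES-E14TG2a), but titles and protocol describe sorted foetal liver, on which the markers below bear. RNA was amplified before libraries were made, and in these bulk samples fewer cells of a type and less RNA per cell cannot be told apart.

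HIF is a pair of proteins, an oxygen-regulated α subunit such as HIF-1α or HIF-2α (the product of *Epas1*) and the stable partner ARNT. When oxygen is present, prolyl hydroxylases mark the α subunit, the VHL protein binds the mark, and the ubiquitin ligase it belongs to sends the subunit for destruction. When oxygen falls, the α subunit escapes, pairs with ARNT and switches on genes that carry the core letters of the hypoxia response element, among them genes of glycolysis, mitophagy, collagen modification and vessel growth. Because this control acts on protein, the level of *Hif1a* RNA does not give the activity of the factor. Nprl3 belongs to GATOR1, a complex that holds back the growth regulator mTORC1, and mTORC1 is known to raise HIF-1α production and glycolysis.

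The core letters of the element, ACGTG or GCGTG, were searched on both strands in the 250 bases before each RefSeq start site in the GRCm38.p6 build. ACGTG on either strand occurred in 16.6% of 32851 promoters in the table, GCGTG in 28.2% and either in 38.6%. A promoter entry was found for 9 of the 10 genes, and *Vegfa* has a pair of entries. Of these 10 entries, 7 held ACGTG, 6 held GCGTG and 8 held either. The stretches below show how the cores are arranged in the genes whose values the results turn on, 5′ to 3′ on the gene's own strand. Capitals mark every core on either strand, so that CACGT and CACGC are cores read on the opposite strand and CACGTG holds 1 core on each strand.
Bnip3, chr7:138909581-138909643, minus strand, 137 to 75 bases before the start: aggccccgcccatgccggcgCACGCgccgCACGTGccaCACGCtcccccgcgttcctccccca
P4ha1, chr10:59323113-59323194, plus strand, 183 to 102 bases before the start: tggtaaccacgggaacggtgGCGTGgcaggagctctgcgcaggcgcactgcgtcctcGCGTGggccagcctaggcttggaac
Ankrd37, chr8:45999978-46000025, minus strand, 175 to 128 bases before the start: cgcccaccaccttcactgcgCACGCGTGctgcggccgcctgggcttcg
Higd1a, chr9:121857838-121857886, minus strand, 90 to 42 bases before the start: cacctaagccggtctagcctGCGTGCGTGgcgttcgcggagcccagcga
Egln3, chr12:54204079-54204123, minus strand, 249 to 205 bases before the start: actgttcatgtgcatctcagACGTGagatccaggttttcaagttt
Hif1a, chr12:73907712-73907757, plus strand, 155 to 110 bases before the start: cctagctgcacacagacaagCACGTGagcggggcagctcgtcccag
*Bnip3* had 5 cores in its 250 bases, of which the stretch above holds 4. Outside the stretches shown, *Ankrd37* held 2 ACGTG cores, and *P4ha1* and *Hif1a* held 1 each. The main entry of *Vegfa* and the entry of *Vhl* held none in this window. A match is a run of letters only, and binding was not measured here.

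The total count ran from 23331156 to 36035368 per library at S1 and from 20666044 to 37609502 at S3. Levels are given as CPM, counts for every 1000000 of the library, after scaling by the trimmed mean of M-values over all 16 libraries. *Nprl3* (ENSMUSG00000020289.16), the targeted gene, was at 21.02 to 33.8 CPM in WT, 12.4 and 12.6 in Het and 0.309 and 0.657 in KO S1 libraries, in the order of the labels. At S3 it was at 143 to 214 CPM in WT, 126 and 153 in Het and 110 and 117 in KO, so the labels were separated less there. The paper describes spliced enhancer-derived transcripts that confound the measurement of *Nprl3* mRNA. Its promoter-specific assay detected no *Nprl3* mRNA in KO cells. The part of such transcripts in the counts here was not tested. *Kit* and *Myb*, genes of early progenitors, were at 53.8 to 124 and 70.6 to 101 CPM at S1 and at or below 0.699 and 2.65 CPM at S3. The 7 markers of maturing erythroblasts summed to 641 to 7450 CPM at S1 and 145704 to 192279 at S3. Granule markers, 8 genes led by *Mpo*, were also present at S1, where they summed to 1033 to 1521 CPM in 6 of the 8 libraries, beside 152 to 233 CPM for the 4 progenitor markers that include *Kit* and *Myb*.

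A pair of S1 libraries stood apart, those of WT embryos 0 and 8, both male. Their maturing erythroblast markers summed to 7450 and 7342 CPM, against 641 to 2153 in the other 6 S1 libraries. Their granule markers summed to 183 and 119 CPM against 1033 to 1521. Their hepatoblast markers, 12 genes led by *Afp* and *Alb*, summed to 293 and 284 CPM against 21.97 to 146. In WT this split and sex cannot be told apart, so each result below that compares with WT was also computed without both libraries of these embryos. At S3 the library of KO embryo 9 had 42.6 CPM of 6 mesenchymal markers, against 1.72 to 3.69 in the other 7 libraries. It was also the highest of the 8 for granule (13.7 CPM against 1.11 to 4.76), progenitor (8.87 against 1.76 to 4.59) and megakaryocyte markers (113 against 41.2 to 92.2).

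**Figure D1:**
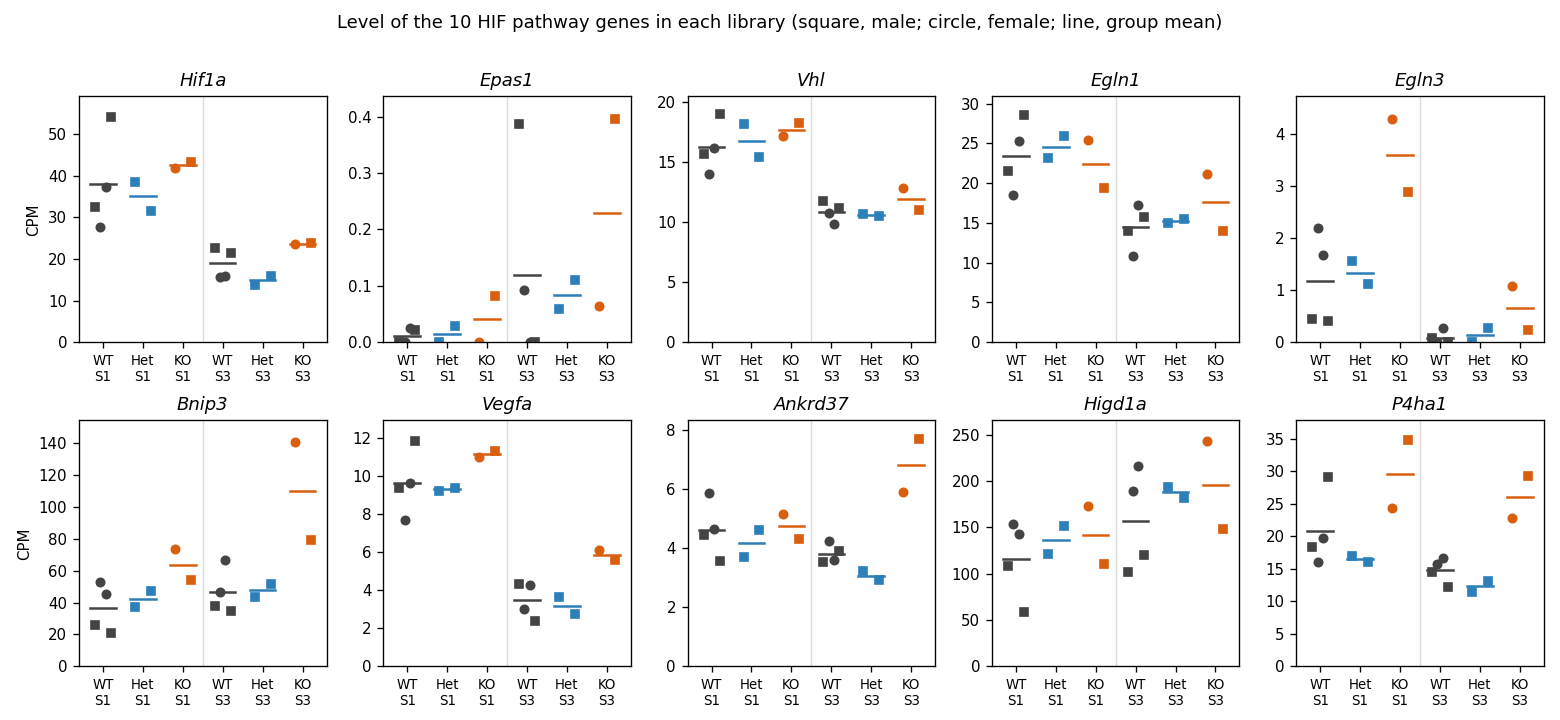
Level of each of the 10 genes, in CPM on axes from 0, in the 16 libraries. Points are libraries (squares male, circles female) and lines are group means. *Hif1a*, *Vhl* and *Vegfa* were lower in every S3 library than in every S1 library, and both KO libraries lay above all WT libraries at S3 for *Bnip3*, *Ankrd37*, *P4ha1*, *Vegfa* and *Hif1a*.

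Per kilobase of exon, the WT levels covered a wide range. *Higd1a* led at S1 with 37.97 ± 14.002 CPM per kb (SD, n = 4), followed by *Bnip3* with 16.004 ± 6.78 (SD, n = 4), and their ranges overlapped. *Egln1*, *Hif1a*, *Vhl* and *P4ha1* followed at 6.53, 6.44, 5.42 and 5.05 CPM per kb, each overlapping the next in its range. *Egln1* lay apart from *Bnip3*, while the highest *Hif1a* library (9.20) passed the lowest of *Bnip3* (9.16). *Ankrd37* and *Vegfa* had 3.00 and 2.25 CPM per kb, with overlapping ranges. *Egln3* had 0.445 and *Epas1* 0.00204 CPM per kb, each apart from its neighbours. At S3 *Higd1a* (51.6) and *Bnip3* (20.5) again led, apart from each other and from the next gene, *Egln1* (4.03). *Vhl*, *P4ha1*, *Hif1a* and *Ankrd37* followed between 3.64 and 2.48 CPM per kb with ranges that overlapped from each to the next. *Vegfa* (0.814) lay apart, and *Egln3* (0.0332) and *Epas1* (0.0214) overlapped at the foot of the order.

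*Hif1a* (ENSMUSG00000021109.14, mm39 chr12:73948149-73994304) encodes the α subunit found in most cells. In WT it was at 32.6, 27.7, 37.4 and 54.2 CPM at S1 in embryos 0, 1, 5 and 8, and at 22.7, 15.7, 15.9 and 21.4 CPM at S3. In Het embryos 3 and 4 it was at 38.5 and 31.6 CPM at S1 and 13.8 and 15.9987 CPM at S3. In KO embryos 2 and 9 it was at 41.9 and 43.4 CPM at S1 and 23.6 and 23.8 CPM at S3. The stages did not overlap in any genotype, as was the case, with S3 lower, for 32% of all genes tested in WT, 44.8% in Het and 41.2% in KO. The log2 ratio (log2 fold change) of S3 over S1, with its standard error (SE), was −0.99 in WT (SE 0.22, adjusted p = 0.00231), −1.24 in Het (SE 0.28, adjusted p = 0.00145) and −0.85 in KO (SE 0.27, adjusted p = 0.0162). Adjusted p-values here and below, where no other tool is named, are from the quasi-likelihood test of edgeR, adjusted over all genes tested by the Benjamini-Hochberg method. It called 35% of all genes lower in WT, 32.4% in Het and 30% in KO. *Hif1a* shares 330 exon bases with a gene on the opposite strand, *Gm15283*, and the counting did not use the strand.

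*Epas1* (ENSMUSG00000024140.11, mm39 chr17:87061128-87140838), which encodes HIF-2α, was barely counted. Its raw count was 0 to 4 in the 8 S1 libraries and 0 to 9 in the 8 S3 libraries, with the highest in WT embryo 0 and KO embryo 9 at S3. These S3 libraries held the highest sums of endothelial markers, 35.2 and 23.2 CPM, against 4.49 to 12.7 in the other 6, and their part in the *Epas1* counts was not tested. The gene was under the count minimum of every comparison, a mean of 10 normalized counts, and no difference was detectable at this depth. A count of 0 still allows up to 3 counts.

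*Vhl* (ENSMUSG00000033933.14, mm39 chr6:113600920-113608594) and *Egln1* (ENSMUSG00000031987.7, mm39 chr8:125635326-125676063) serve the destruction of the α subunit. In WT embryos 0, 1, 5 and 8 *Vhl* was at 15.7, 14.1, 16.2 and 19.1 CPM at S1 and at 11.8, 10.7, 9.82 and 11.2 CPM at S3. *Egln1* was at 21.5, 18.5, 25.3 and 28.6 CPM at S1 and at 13.99, 10.9, 17.2 and 15.8 CPM at S3. Both were higher in every S1 than in every S3 library of WT. In Het, *Vhl* was at 18.2 and 15.4 CPM at S1 and 10.7 and 10.5 at S3, and in KO at 17.2 and 18.3 CPM and 12.9 and 11.02 CPM. *Egln1* in Het was at 23.2 and 25.97 CPM at S1 and 15.04 and 15.5 at S3, and in KO at 25.4 and 19.4 CPM and 21.2 and 13.95 CPM. The stages overlapped only for *Egln1* in KO. Of all genes, 32% in WT, 44.8% in Het and 41.2% in KO had S3 libraries below those of S1 without overlap. *Vhl* fell by 0.57 on the log2 scale in WT (SE 0.15, adjusted p = 0.00661), with −0.66 in Het (adjusted p = 0.00743) and −0.57 in KO (adjusted p = 0.0186). *Egln1* fell by 0.69 in WT (SE 0.19, adjusted p = 0.00865) and by 0.69 in Het (SE 0.27, adjusted p = 0.0362), and its value in KO was −0.35 (SE 0.27, adjusted p = 0.279).

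*Egln3* (ENSMUSG00000035105.6, mm39 chr12:54225767-54250646) encodes a hydroxylase that is itself a well-known HIF target. Its raw count was 15 to 94 in WT S1 libraries and 0 to 7 in WT S3 libraries. In CPM, WT embryos 0, 1, 5 and 8 had 0.450, 2.20, 1.68 and 0.405 at S1, Het embryos 1.55 and 1.12, and KO embryos 4.28 and 2.89. The KO libraries were the highest of the 8 and WT embryos 0 and 8 the lowest. At S3 the highest library was KO embryo 2 with 1.08 CPM, and the other 7 had 0 to 0.274 CPM. The log2 ratio of S3 over S1 was −3.52 in WT (SE 0.93, adjusted p = 0.00646), −3.22 in Het (SE 1.25, adjusted p = 0.0351) and −2.47 in KO (SE 1.02, adjusted p = 0.0497). With each WT embryo left out in turn, the WT value ran from −4.78 to −2.62. The KO call did not pass with RLE size factors (adjusted p = 0.0503).

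*Vegfa* (ENSMUSG00000023951.19, mm39 chr17:46327919-46343295), the vascular growth factor, was at 9.36, 7.69, 9.61 and 11.8 CPM in WT S1 libraries of embryos 0, 1, 5 and 8 and at 4.29, 2.98, 4.28 and 2.39 CPM in their S3 libraries. In Het it was at 9.22 and 9.38 CPM at S1 and 3.61 and 2.74 at S3, and in KO at 10.998 and 11.3 CPM and 6.09 and 5.59 CPM. It fell by 1.44 on the log2 scale in WT (SE 0.24, adjusted p = 0.000356), by 1.55 in Het (SE 0.30, adjusted p = 0.000398) and by 0.93 in KO (SE 0.29, adjusted p = 0.0121). Like *Egln3* it passed in all 3 genotypes, while *Bnip3*, *Ankrd37*, *Higd1a* and *P4ha1* passed in none of them in the same fits.

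*Bnip3* (ENSMUSG00000078566.9, mm39 chr7:138492565-138511248), a mitochondrial receptor for autophagy, was at 25.9, 52.9, 45.5 and 20.7 CPM at S1 and 37.9, 46.5, 66.6 and 34.8 CPM at S3 in WT embryos 0, 1, 5 and 8. The ranges overlapped, and the log2 ratio was 0.35 (SE 0.33, adjusted p = 0.368). Het embryos had 36.9 and 47.0 CPM at S1 and 43.6 and 51.5 at S3, and KO embryos 73.4 and 54.0 at S1 and 141 and 79.5 at S3. In KO both S3 libraries lay above both S1 libraries, as for 36.7% of all genes, with a log2 ratio of 0.79 (SE 0.42, adjusted p = 0.121). With the embryo as a block, which pairs the stages of one animal, it was 0.75 (SE 0.21, adjusted p = 0.00853), in a fit that called 29.2% of all genes higher. *Bnip3* shares 504 exon bases with *Gm45507* on the opposite strand.

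*Higd1a* (ENSMUSG00000038412.9, mm39 chr9:121677629-121687428), a small mitochondrial inner membrane protein, was at 108, 153, 142 and 58.6 CPM at S1 and 102, 190, 216 and 120 CPM at S3 in WT embryos 0, 1, 5 and 8. Het embryos had 121 and 152 CPM at S1 and 194 and 182 at S3, and KO embryos 173 and 110 at S1 and 244 and 148 at S3. Both Het S3 libraries lay above both Het S1 libraries, as for 42.1% of all genes, while WT and KO stages overlapped. Its log2 ratio of S3 over S1 was 0.43 in WT (SE 0.33, adjusted p = 0.275), 0.46 in Het (adjusted p = 0.362) and 0.47 in KO (adjusted p = 0.368). Without WT embryos 0 and 8 the WT value was 0.45 (SE 0.14, adjusted p = 0.0260). It shares 683 exon bases with *Gm47112* on the opposite strand.

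*Ankrd37* (ENSMUSG00000050914.17, mm39 chr8:46449939-46458744), an ankyrin repeat protein, was at 4.44, 5.86, 4.64 and 3.56 CPM at S1 and 3.52, 4.22, 3.59 and 3.91 CPM at S3 in WT embryos 0, 1, 5 and 8. It was at 3.70 and 4.61 CPM at S1 and 3.21 and 2.90 at S3 in Het, and at 5.17 and 4.31 CPM and 5.90 and 7.68 CPM in KO. Its S3 libraries lay below those of S1 in Het, as for 44.8% of all genes, and above them in KO, as for 36.7%. The log2 ratio was −0.28 in WT (adjusted p = 0.296), −0.44 in Het (adjusted p = 0.178) and 0.52 in KO (SE 0.27, adjusted p = 0.111). It shares 349 exon bases with *Lrp2bp* and 57 with *Ufsp2*, both on the opposite strand.

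*P4ha1* (ENSMUSG00000019916.15, mm39 chr10:59159118-59209126), the catalytic subunit of collagen prolyl 4-hydroxylase, was at 18.4, 16.008, 19.7 and 29.1 CPM at S1 and 14.5, 15.8, 16.7 and 12.2 CPM at S3 in WT embryos 0, 1, 5 and 8. It was at 16.9 and 15.97 CPM at S1 and 11.4 and 13.1 at S3 in Het, and at 24.4 and 34.8 CPM and 22.8 and 29.2 CPM in KO. The stages overlapped in WT and KO and not in Het, where S3 was lower, as for 44.8% of all genes. The log2 ratio in WT was −0.47 (SE 0.19, adjusted p = 0.0500314), just beyond the threshold. It was −0.42 in Het (adjusted p = 0.195) and −0.19 in KO (adjusted p = 0.577).

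Read over the 9 genes tested, 0 rose and 5 fell in WT, 0 and 4 in KO, and 0 and 5 in Het. Markers of other cell types moved between the same stages. Of 8 granule markers tested, 8 fell in WT (median log2 ratio −7.80), 5 in KO and 6 in Het. Of 13 macrophage markers tested, 10 rose in WT, while 2 rose and 2 fell in KO and 9 rose in Het. The part of these markers in the changes of the members was not tested. Beside the shares of all genes called lower given above, 30.6% of all genes were called higher in WT, 26.9% in KO and 28.9% in Het. The median log2 ratio of the 9 genes in WT was −0.57, beside −0.08 over 13514 genes. Without WT embryos 0 and 8 the WT counts were 1 rise and 3 falls, because *Vhl* (−0.57, adjusted p = 0.0557) and *Egln1* (−0.64, adjusted p = 0.0939) no longer passed. Without either KO embryo, which leaves 1 KO library per stage, 0 of the 4 KO falls passed. Over all fits that left out 1 embryo the KO log2 ratio ran from −0.87 to −0.84 for *Hif1a*, −1.02 to −0.86 for *Vegfa*, −0.73 to −0.43 for *Vhl* and −3.66 to −1.99 for *Egln3*. Without Het embryo 3, 1 of the 5 Het falls passed, with log2 ratios of −1.81 for *Vegfa*, which passed, −1.01 for *Hif1a*, −0.58 for *Vhl*, −0.78 for *Egln1* and −2.04 for *Egln3*.

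**Figure D2:**
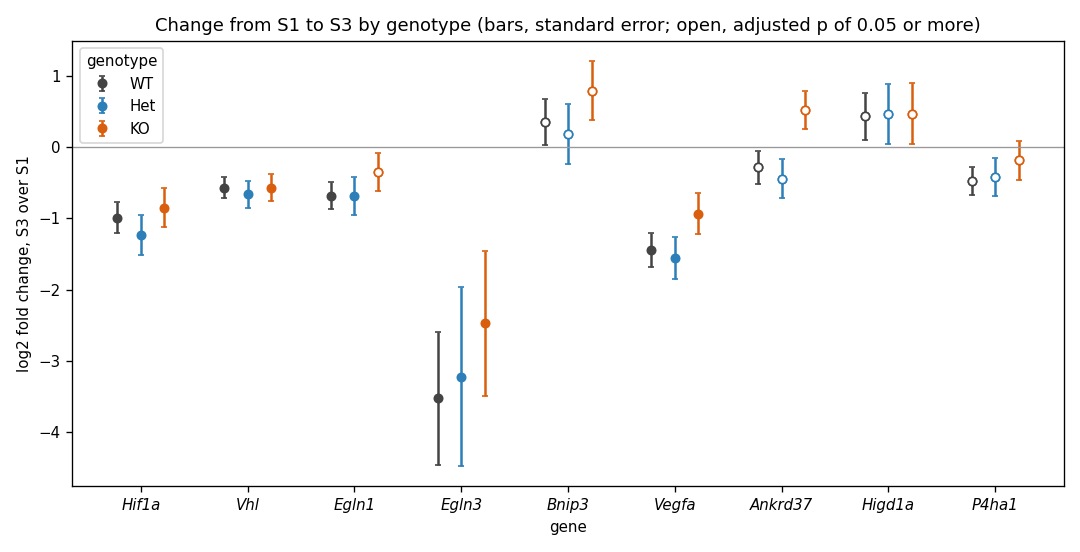
Log2 ratio of S3 over S1 for the 9 genes tested, in WT, Het and KO. Bars are standard errors and open points did not pass an adjusted p of 0.05. The points of *Hif1a*, *Vhl*, *Egln3* and *Vegfa* lie below 0 and passed in all 3 genotypes, while *Ankrd37* lies at −0.28 in WT, −0.44 in Het and 0.52 in KO.

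The comparison of KO with WT asked whether loss of Nprl3, which removes a brake on mTORC1, goes with other HIF pathway RNA levels. At S3 both KO libraries lay above all 4 WT libraries for *Bnip3*, *P4ha1*, *Ankrd37*, *Vegfa* and *Hif1a*, 5 of the 8 genes tested, while 9.18% of all 11804 genes tested did so. None of the 8 passed edgeR's test over all genes, which called 0.457% of genes higher and 0.102% lower. *Bnip3* was at 141 and 79.5 CPM in KO against 34.8 to 66.6 in WT, a mean of 110 ± 43.5 (SD, n = 2) against 46.5 ± 14.3 (SD, n = 4). Its log2 ratio was 1.26 (SE 0.30, adjusted p = 0.157). *P4ha1* was at 22.8 and 29.2 CPM against 12.2 to 16.7, a log2 ratio of 0.82 (SE 0.18, adjusted p = 0.119). The higher of these was KO embryo 9, and without that embryo the ratio was 0.64. *Ankrd37* was at 5.90 and 7.68 CPM against 3.52 to 4.22, a log2 ratio of 0.85 (SE 0.22, adjusted p = 0.212), and of 0.65 without KO embryo 9, again the higher. The part of the other markers that this S3 library held was not tested.

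The remaining genes differed less. *Vegfa* was at 6.09 and 5.59 CPM in KO against 2.39 to 4.29 in WT at S3, a log2 ratio of 0.75 (SE 0.28, adjusted p = 0.477). *Hif1a* was at 23.6 and 23.8 CPM against 15.7 to 22.7, a log2 ratio of 0.34 (SE 0.19, adjusted p = 0.717). Here the higher WT libraries were those of the male embryos 0 and 8. *Higd1a* (0.33), *Egln1* (0.29) and *Vhl* (0.15) overlapped between the groups, with adjusted p of 0.886, 0.855 and 0.924. All 8 log2 ratios were above 0, with a median of 0.54 beside 0.01 over all genes. Of these, *Higd1a* was below 0 without WT embryos 0 and 8 (−0.036), and *Higd1a* (−0.079) and *Egln1* (−0.048) were below 0 without KO embryo 2. *Egln3* was under the count minimum at S3, with raw counts of 17 and 4 in KO and 0 to 7 in WT.

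*Bnip3* and *P4ha1* passed at S3 where the test or its covariates were changed. With DESeq2, which called 1.22% of all genes higher, the adjusted p was 0.00511 for *Bnip3* and 0.00900 for *P4ha1*. With edgeR and sex as a covariate (2.41% higher) it was 0.000476 and 0.0107, and without the count minimum 5.75e-05 and 0.0216. With DESeq2 and sex (2.77% higher) *Higd1a* also passed (0.34, adjusted p = 0.0442). Within sexes, *Bnip3* in KO was 2.49 times the mean of the 2 WT libraries in females and 2.19 times in males, and *P4ha1* 1.40 and 2.19 times. *Ankrd37* was 1.51 and 2.07 times and *Vegfa* 1.68 and 1.67 times, with 1 KO library of each sex. *Hif1a* was 1.49 and 1.08 times and *Higd1a* 1.20 and 1.34 times. *Egln1* (1.51 and 0.94 times) and *Vhl* (1.25 and 0.96 times) were above WT in females and below it in males. Without WT embryos 0 and 8 the log2 ratios were 0.97 for *Bnip3*, 0.69 for *P4ha1*, 0.82 for *Ankrd37* and 0.70 for *Vegfa*, and 0 of these 4 passed. Without KO embryo 2 *Bnip3* had 0.78, and without KO embryo 9 it had 1.62. The 7 maturing erythroblast markers summed to 145704 and 147119 CPM in KO at S3, below all 4 WT (160155 to 192279) and both Het libraries, and 0 of the 7 passed. The 12 hepatoblast markers summed to 71.5 and 209 CPM in KO and to 164 to 792 in WT at S3, which overlap. The 15 macrophage markers summed to 39.4 and 19.5 CPM in KO and to 39.7 to 90.0 in WT. Of these, 0 of 12 hepatoblast markers and 1 of 13 macrophage markers tested passed, the latter lower in KO, and *Vsig4* was at 0 in every library. The part of the marker differences in those of the members was not tested.

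**Figure D3:**
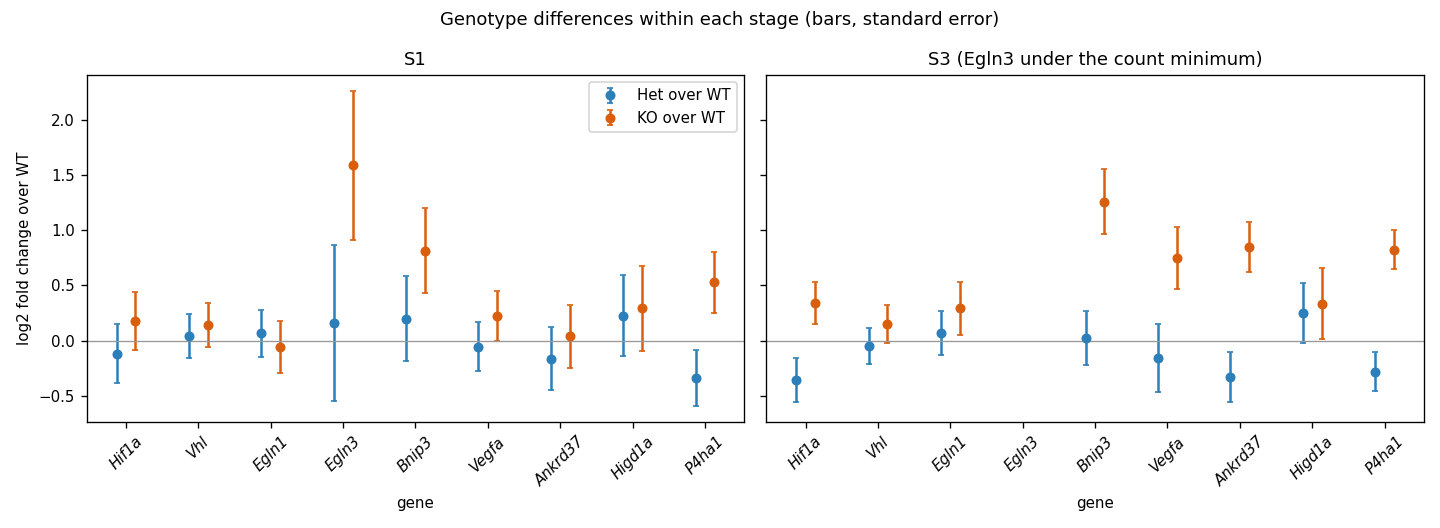
Log2 ratio of KO and of Het over WT within S1 and within S3, with standard errors. At S3 the KO points of *Bnip3* (1.26), *Ankrd37* (0.85), *P4ha1* (0.82) and *Vegfa* (0.75) are the highest, and the Het points lie between −0.35 and 0.25.

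At S1, both KO libraries lay above all 4 WT libraries for *Egln3* and *Bnip3*, 2 of 9 genes tested, against 6.57% of 14039 genes. The granule markers also summed higher in both KO S1 libraries (1480 and 1521 CPM) than in all 4 WT (119 to 1214), and their part was not tested. The test called 0 genes higher and 0.00712% lower at S1, so that 0 of the 9 passed. At an unadjusted p under 0.05, 355 genes passed. *Egln3* had a log2 ratio of 1.59 (SE 0.68) and *Bnip3* of 0.81 (SE 0.38), both with an adjusted p of 0.9998. *P4ha1* was at 24.4 and 34.8 CPM in KO against 16.008 to 29.1 in WT, a log2 ratio of 0.53 (SE 0.28). *Vegfa* (0.22) and *Hif1a* (0.18) also lay within the spread. With DESeq2 and sex as a covariate *Egln3* (1.97, adjusted p = 0.00896) and *Bnip3* (0.90, adjusted p = 0.0428) passed, as did 0.882% of all genes as higher. Without WT embryos 0 and 8 the values were 0.85 for *Egln3* and 0.35 for *Bnip3*, and neither passed.

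The S1 libraries that stood apart also had the lowest *Bnip3*, *Egln3* and *Higd1a*. WT embryos 8 and 0 had 20.7 and 25.9 CPM of *Bnip3*, against 36.9 to 73.4 in the other 6 S1 libraries. They had 58.6 and 108 CPM of *Higd1a* against 110 to 173, and 0.405 and 0.450 CPM of *Egln3* against 1.12 to 4.28. At S3 the same embryos again had the lowest *Bnip3* (34.8 and 37.9 CPM) and *Higd1a* (120 and 102 CPM) of the 8. Their maturing erythroblast sums there overlapped the others, while their hepatoblast sums (497 and 792 CPM) still lay above the other 6 (71.5 to 230.1). These embryos are the males among the WT. The part of the marker difference was not tested, and within WT it cannot be told apart from sex.

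**Figure D4:**
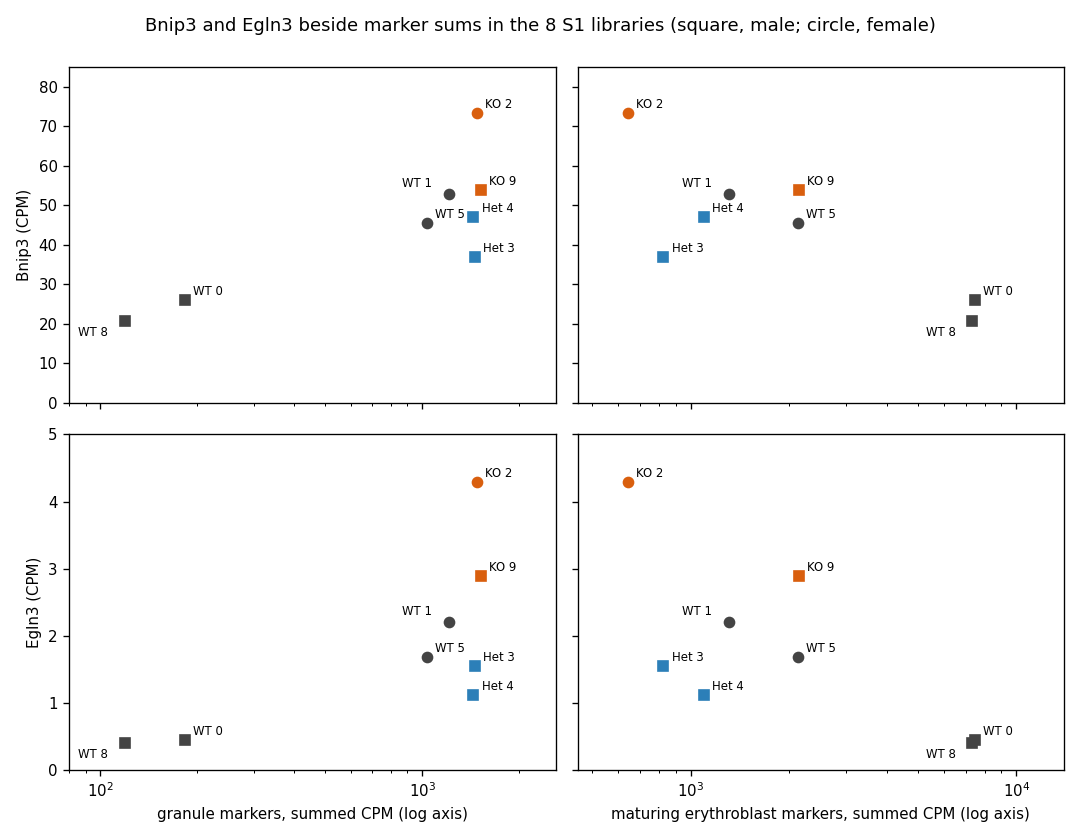
*Bnip3* (top) and *Egln3* (bottom) in CPM against the summed CPM of granule markers (left) and of maturing erythroblast markers (right) in the 8 S1 libraries. The x axes are logarithmic, and each point is named by genotype and embryo. WT 0 and WT 8 lie apart on every panel, with granule sums of 183 and 119 CPM and *Bnip3* at 25.9 and 20.7 CPM.

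Whether the KO difference changed with maturation was tested as an interaction over 12 libraries. The test called 1 gene, *Nprl3* itself, of 13485 (0.00742%), and 0 of the 9 HIF pathway genes. The *Nprl3* count can include the enhancer-derived transcripts named above. All 9 interaction values were above 0, from 0.01 in *Vhl* to 1.03 in *Egln3* (SE 1.40), with a median of 0.35 beside 0.04 over all genes. *Ankrd37* had 0.80 (SE 0.35), *Vegfa* 0.52 (SE 0.38) and *Bnip3* 0.43 (SE 0.55), each with an adjusted p of 1. This fit did not pair the stages of an embryo. With the embryo as a block 0 of the 9 passed, and *Higd1a* (−0.0029) and *Vhl* (−0.0022) were just below 0. Without WT embryos 0 and 8 it was *P4ha1* (−0.052) and *Vhl* (−0.011) that were below 0. Within embryos, the change from S1 to S3 in both KO embryos lay above that in all 4 WT embryos for *Vegfa* (−0.84 and −1.003 against −2.26 to −1.11), *Egln1* (−0.26 and −0.47 against −0.85 to −0.55) and *Ankrd37* (0.19 and 0.82 against −0.46 to 0.13), and for none of the other 6 members tested. Of all 13485 genes tested 6.44% did so. No difference between the stages in the effect of KO passed the test for these genes.

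Het embryos were compared with WT in the same way, and with the same WT libraries as KO. No gene was called at S3 or S1 by edgeR (0%), so that 0 of 8 and 0 of 9 members passed, although 373 and 589 genes of all tested had an unadjusted p under 0.05 and DESeq2 called 1 and 30. At S3, *Bnip3* (0.02), *Higd1a* (0.25), *P4ha1* (−0.28) and *Hif1a* (−0.35) all had libraries that overlapped those of WT. *Ankrd37*, at 3.21 and 2.90 CPM, was below all 4 WT libraries, as were 6.26% of 11746 genes tested. At S1 the values were 0.20 for *Bnip3*, 0.23 for *Higd1a* and 0.16 for *Egln3*, with overlapping libraries. With DESeq2 and sex as a covariate *Bnip3* (0.83, adjusted p = 0.0465) and *Egln3* (1.64, adjusted p = 0.0382) passed at S1, where that fit called 815 genes, 2.4% of all tested as higher. Without WT embryos 0 and 8 both turned, to −0.27 for *Bnip3* and −0.57 for *Egln3*. With sex as a covariate, which sets the Het males against the male WT embryos 0 and 8, *Higd1a* at S3 was higher by edgeR (0.75, adjusted p = 0.00307) and *Hif1a* lower (−0.58, adjusted p = 0.0189). That fit called 8.84% of all genes higher and 9.25% lower, so that 1 of 8 members each way was near these shares. Without those embryos the S3 values were −0.12 and −0.10.

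A further 3 lists of pathway genes, drawn up by role, give the setting of the 10 genes, which are left out of them here. Of the 15 genes of the HIF machinery 14 were tested between WT stages, and 4 rose and 3 fell, with a median of 0.17. Over all genes tested 30.6% were called higher and 35% lower, shares that these counts did not exceed. *Arnt*, the partner subunit, rose from 14.2 to 40.2 CPM at S1 to 48.1 to 77.8 at S3 (log2 ratio 1.44, SE 0.29, adjusted p = 0.00123). *Elob*, a subunit of the VHL ligase, rose by 1.51 and the coactivator *Crebbp* by 0.95. *Siah2*, a ubiquitin ligase of the hydroxylases, was at 7.87 to 10.6 CPM at S1 and 1.09 to 1.67 at S3 and fell by 2.78. The hydroxylase *Egln2* fell by 0.42, and *P4htm*, a transmembrane prolyl hydroxylase, was at 1.00 to 1.77 CPM at S1 and at 0 in 3 of 4 WT libraries at S3.

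Of 21 glycolytic targets, all tested, 3 rose and 13 fell between WT S1 and S3, with a median of −1.27. Over all genes tested 30.6% were called higher and 35% lower. The granule markers fell in the same comparison, from sums of 119 to 1214 CPM at S1 to 1.11 to 4.76 CPM at S3, and their part was not tested. The risers were *Slc2a1*, the glucose transporter of red cells, with 30.8 to 131 CPM at S1 and 2107 to 4495 at S3 (log2 ratio 5.42, SE 0.47), *Aldoc* (1.85) and *Pfkl* (0.54). *Aldoc* was barely counted, with WT raw counts of 3 to 18 at S1 and 15 to 24 at S3. *Pfkl* overlapped between WT stages, with 217 to 388 CPM at S1 and 378 to 514 at S3, and passed in 6 of 10 alternative fits. *Hk2* fell by 4.77, *Pfkfb3* by 3.27 and *Ldha*, which makes lactate, by 2.35. Of 35 other targets 27 were tested, and 12 rose and 9 fell, with a median of 0.42. Beside the same 35% of all genes called lower, the falls were near that share. *Pnrc1* (3.53), *Bnip3l* (3.44), the mitophagy receptor of maturing red cells, and *Narf* (3.27) rose most. *Ak4*, an adenylate kinase of mitochondria, fell by 3.69, while *Stc2* and *Plod2* were at 0.937 to 2.78 and 0.490 to 1.11 CPM at S1 and at 0.0918 and 0.115 CPM or below at S3. *Bnip3l* at 1952 to 2403 CPM in WT at S3 thus moved with a passing test, and its relative *Bnip3*, at 34.8 to 66.6 CPM, without one.

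Over all genes tested in KO against WT at S3, 0.457% were called higher and 0.102% lower. Of 13 machinery genes tested 1 was called higher, *Cited2*, which competes with HIF for its coactivators. It was at 35.9 and 50.2 CPM in KO and 16.1 to 22.2 in WT (log2 ratio 1.20, SE 0.18, adjusted p = 0.0385). The median of the list was −0.02. *Siah2* was at 2.43 and 2.79 CPM in KO and 1.09 to 1.67 in WT (log2 ratio 0.92, adjusted p = 0.367). Of 19 glycolytic targets tested 1 was called higher, *Pfkp*, the platelet form of phosphofructokinase. It was at 43.5 and 27.9 CPM in KO and 6.79 to 8.68 in WT (log2 ratio 2.23, SE 0.21, adjusted p = 0.00910), and it shares 748 exon bases with *Pitrm1* on the opposite strand. The median of these 19 genes was 0.54 and 15 were above 0. Both KO libraries were above all WT libraries in 10 of the 19, and in 9.18% of all genes tested. *Aldoa* followed with 0.94 (SE 0.21, adjusted p = 0.128). Of 22 other targets 0 were called, with a median of 0.01. *Hmox1*, which degrades haem, was at 9.46 and 10.6 CPM in KO and 20.1 to 34.5 in WT (log2 ratio −1.36, adjusted p = 0.0678), and *Ero1a* had 0.49 (adjusted p = 0.226). *Hmox1* passed with DESeq2, among 259 genes called. With edgeR and sex as a covariate both passed, among 547 genes called. Without WT embryos 0 and 8 neither did.

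Whether *Cited2* and *Pfkp* passed depended on the libraries. *Cited2* did not pass without WT embryo 0, 1, 5 or 8, or KO embryo 9, each left out alone, with log2 ratios of 0.94 to 1.26 and adjusted p from 0.0741 to 0.208. The value without KO embryo 9, the higher KO library at 50.2 CPM and the one with more of the other markers, was 0.94. It passed with DESeq2 (adjusted p = 1.38e-05), with edgeR and sex (0.000621), without the count minimum (5.39e-05) and with all 16 libraries (0.00424). *Pfkp* passed in each such fit, and without WT embryos 0 and 8 together its log2 ratio was 2.22, with an adjusted p of 0.0605. With edgeR and sex as a covariate 10 glycolytic targets were called higher, beside 285 (2.41%) of all genes tested. With DESeq2 it was 4 beside 144 (1.22%), and with DESeq2 and sex 12 beside 308 (2.77%). In either direction, 7 were called among 356 genes without the count minimum, and 0 among 5 without WT embryos 0 and 8.

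**Figure D5:**
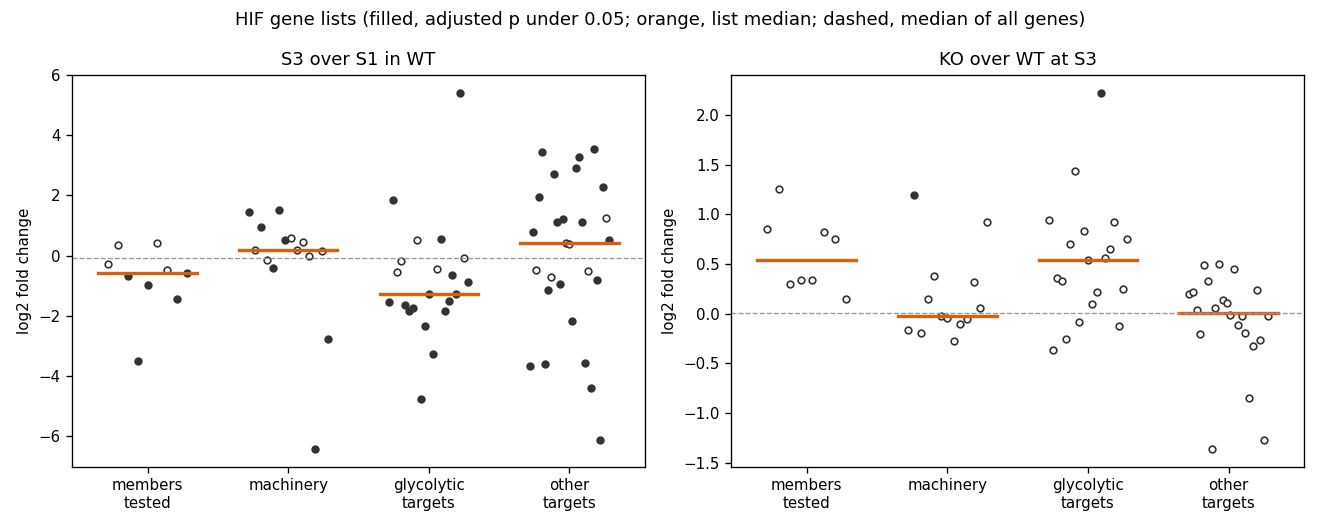
Log2 ratio of each gene tested, for the members and for 3 lists without them, in WT S3 over S1 (left) and KO over WT at S3 (right). Filled points passed an adjusted p of 0.05, orange lines are list medians and the dashed line is the median of all genes. The glycolytic list has medians of −1.27 (left) and 0.54 (right).

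The listed genes most like each member were found from log2 CPM over the 16 libraries after the mean of each stage was taken away. Genotype means were not taken away, so differences between genotypes remain in these values. The libraries also share embryos, depth and the split of WT embryos described above, and the values are descriptions. *Bnip3* was most like *Aldoa* (Pearson's r = 0.94, n = 16) and *Egln3* most like *Bnip3* (0.92). *Higd1a* was most like *Fam162a* (0.98), *Vegfa* most like *Siah2* (0.91) and *P4ha1* most like *Ero1a* (0.89). *Ankrd37* was most like *Pfkp* (0.75). *Hif1a* was most like *Kdm4b* (0.86), *Vhl* most like *Hif1a* (0.83) and *Egln1* most like *Pfkl* (0.63). Among the targets, *Hif1a* itself had r = 0.70 with *P4ha1*, 0.57 with *Vegfa* and 0.23 with *Ankrd37*. It had 0.17 with *Egln3*, 0.05 with *Bnip3* and −0.56 with *Higd1a*.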

How the data were processed

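RNA-seq of S1 and S3 erythroblasts was analysed for 16 libraries. The authors deposited raw read-pair counts per Ensembl gene, made with STAR 2.7.9 and featureCounts 1.6.4 on mm39. Strand was not used, and reads mapping to several places or genes were left out. Groups came from the labels. A further 4 library columns of the table had no matching sample and were set aside. Symbols came from the GENCODE annotation and matched 54749 of 55416 genes.

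Counts were filtered to a mean above 10 normalized counts, scaled by TMM and tested with edgeR 4.0.16 (quasi-likelihood) in R 4.3.3, with Benjamini-Hochberg adjustment over all genes tested and a threshold of 0.05. WT stages and genotypes were compared on their own libraries, KO and Het stages in a fit of all 16 libraries, and the interaction on 12. DESeq2, the tool of the paper's methods, was an alternative here, run as version 1.42.0. Likeness used log2(CPM + 0.1). Sequences are from RefSeq promoters (GRCm38.p6). Each library held 20666044 counts or more.

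Named genes are the 10 members, the 3 largest rises and falls per list between WT stages, the 2 smallest p per list in KO against WT at S3, the gene most like each member, and listed genes called between genotypes. Members and lists were chosen with earlier results of these data known. An embryo number joins both stages of 1 animal. After subtraction of group means, the stages of an animal correlated over 13402 genes with r = 0.05, 0.29, 0.41 and 0.41 in WT embryos 0, 1, 5 and 8, while KO embryos had 0.53 and Het embryos 0.07. Alternatives were RLE size factors, TMM without globin genes, no filter, DESeq2, sex as a covariate, other libraries in the fit, the embryo as a block, and leaving out each embryo. Scripts were tested on simulated counts. Other cell types' markers were given as sums of CPM. Protein sequences were not used here.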

Additional observations from a re-analysis of the deposited data

Results flagged for a closer look

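Some single libraries lay far from the rest of their group of 4, by Dixon's criterion, which chance meets in about 1 in 20 groups (66 groups were tested). *Pnrc1* was at 312 CPM in the WT S3 library of embryo 8, against 231 to 234 in the other 3. *P4htm* at 0.0459 CPM and *Stc2* at 0.0918 CPM in embryo 1, and *Plod2* at 0.115 CPM in embryo 5, were the only WT S3 libraries above 0 for these genes. These levels are raw counts of 1, 2 and 3 beside libraries at 0, which meet the criterion by construction and are within what a count of 0 allows.

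The change of *Ankrd37* from S1 to S3 went up in both KO embryos (0.19 and 0.82 on the log2 scale) and down in both Het embryos (−0.20 and −0.65), a mean difference of 0.93. The difference was not tested.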

How the results depend on the processing

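Groups of 2 embryos and the split among WT embryos limit these results, and depth limits *Epas1* throughout and *Egln3* at S3. Fits that leave 1 library in a group assume that it varies like the others. Scaling moved the median of all genes by under 0.1. The alternative without WT embryos 0 and 8 was chosen after seeing the data. Genes called in KO against WT at S3 numbered 356 without the filter, 259 with DESeq2, 547 with edgeR and sex, 730 with DESeq2 and sex, 104 with all 16 libraries and 5 without WT embryos 0 and 8 (11 to 42 leaving out an embryo), beside 66. Members called higher there were 2 without the filter, 2 with DESeq2, 2 with edgeR and sex and 3 with DESeq2 and sex. For KO against WT at S1 the genes called were 7 without the filter, 45 with DESeq2, 21 and 171 with sex (edgeR, DESeq2), 2 with all 16 libraries, 2 without WT embryos 0 and 8, and 0 to 2 leaving out an embryo, and DESeq2 with sex called 2 members. For Het against WT the genes called at S3 were 57 without the filter, 1 with DESeq2, 2124 and 2148 with sex, 8 without WT embryos 0 and 8 and 0 to 3 leaving out an embryo, with 1 member higher and 1 lower under both tests with sex. At S1 they were 30 with DESeq2, 397 and 815 with sex (2 members higher with DESeq2) and 5 without WT embryos 0 and 8. The interaction called 3 genes without the filter and 12 with DESeq2.

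Between WT stages, members called without WT embryos 0 and 8 were 1 higher and 3 lower, and 4 to 6 were lower leaving out an embryo. In KO, 1 member (*Bnip3*) was higher without the filter, with the embryo as a replicate block and without WT embryos 0 and 8, and 0 to 4 were lower leaving out an embryo. In Het, 1 was higher with its own 4 libraries only, and 1 to 5 were lower leaving out an embryo. The block changed no other call of a member. Genes called between stages leaving out an embryo ran from 7383 to 8864 in WT, 5368 to 8206 in KO and 5552 to 8752 in Het. Directions turned without WT embryos 0 and 8 for *Higd1a* in KO at S3 (−0.036), for *Bnip3* (−0.26) and *Higd1a* (−0.12) in Het at S3, and for *Bnip3* (−0.27), *Higd1a* (−0.15) and *Egln3* (−0.57) in Het at S1. Leaving out 1 embryo in turn, the values that turned ran from −0.048 to 0.57 for *Egln1* and −0.079 to 0.65 for *Higd1a* in KO at S3, both negative without KO embryo 2, from −0.11 to 0.25 for *Bnip3* in Het at S3, and from −0.033 to 0.44 for *Bnip3*, −0.031 to 0.39 for *Higd1a* and −0.16 to 0.65 for *Egln3* in Het at S1. The cause was not tested.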
